A study of Homo sapiens with 6 samples.

Results

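CLIC3 and the Rab GTPases that return integrins and a membrane protease from endosomes to the cell surface were measured in MDA-MB-231 cells, a line from a human breast cancer without hormone receptors or HER2 amplification, with lowered MYO10 message. The group comprised 10 genes: the chloride intracellular channel family members CLIC1, CLIC3 and CLIC4, the small GTPases RAB25, RAB11A, RAB21, RAB5A and RAB4A, and the RAB11 effectors RAB11FIP1 and RAB11FIP5. All probe sets that the array annotation assigns to 1 of these symbols alone were taken, which gave 23 of the 54675 probe sets on the array and 10 of its 19775 single-symbol genes. Each probe set combines several short probes against the same transcript region. CLIC3 was selected on its log2 fold change between these same arrays, and the other 9 genes were added for their role with results of these arrays known. The difference in CLIC3 is therefore given as a description with no test.

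The comparison set 3 arrays of cells with a stably expressed shRNA (short hairpin RNA) directed at MYOSIN10, today's MYO10, against 3 arrays from cells that stably carried a scramble shRNA. Both groups were grown in L-15 medium with serum, and the labels name neither the hairpin sequence nor the number of clones. The labels number the samples of each group but do not say whether they were separate cultures, so p-values measure a spread that may be purely technical. Since 3 arrays against 3 cannot give an exact permutation p below 0.10 for a single gene, tests were taken from a fit across all probe sets.

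Integrins and the membrane-anchored matrix metalloprotease MMP14 are taken into the cell by endocytosis, sorted in early endosomes and either degraded in lysosomes or sent back to the surface. RAB5A and RAB21 act at the first steps of this route, RAB4A drives the fast return from early endosomes, and RAB11A and its epithelial relative RAB25 drive the slow return through the recycling compartment with the help of RAB11 family interacting proteins. CLIC3 is a small glutathione S-transferase-like protein of late endosomes. It is known from ovarian and pancreatic cancer cells to act with RAB25 in rescuing active integrin from lysosomes, and from breast cancer cells to assist the recycling of MMP14. MYO10 is a filopodial motor that also binds integrins.

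The upstream sequences of 4 members are shown because these genes mark the ends of the pattern described below: CLIC3 was higher in the MYOSIN10 shRNA cells, the brightest probe sets of its relatives CLIC1 and CLIC4 overlapped between the groups, and RAB25 was at the bottom of the signal range. Each is the 250 bases before the annotated start, 5′ to 3′, from RefSeq (GRCh38.p14), and of the 10 members 9 were matched. Capitals mark every match, on either strand, to the GC box GGGCGG, the TATA box TATAAA, the AP-1 site TGANTCA or the E-box CACGTG. No marked matches overlap.
CLIC3 (chr9:136996569-136996818, minus strand): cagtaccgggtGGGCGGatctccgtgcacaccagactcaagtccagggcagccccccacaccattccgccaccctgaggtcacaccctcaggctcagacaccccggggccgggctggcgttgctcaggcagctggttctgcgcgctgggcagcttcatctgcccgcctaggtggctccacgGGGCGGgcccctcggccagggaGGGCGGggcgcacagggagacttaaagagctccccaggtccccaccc
CLIC1 (chr6:31736531-31736780, minus strand): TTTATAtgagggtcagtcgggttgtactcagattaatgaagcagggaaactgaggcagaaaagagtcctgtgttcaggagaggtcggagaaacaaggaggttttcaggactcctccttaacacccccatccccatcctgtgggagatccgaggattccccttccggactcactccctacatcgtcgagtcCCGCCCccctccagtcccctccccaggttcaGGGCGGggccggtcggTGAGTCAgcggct
CLIC4 (chr1:24745197-24745446, plus strand): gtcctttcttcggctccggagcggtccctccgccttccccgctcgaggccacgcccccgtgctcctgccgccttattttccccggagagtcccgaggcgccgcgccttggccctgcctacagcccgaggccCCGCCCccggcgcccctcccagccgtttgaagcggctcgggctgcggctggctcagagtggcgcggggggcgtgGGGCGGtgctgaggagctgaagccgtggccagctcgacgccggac
RAB25 (chr1:156060910-156061159, plus strand): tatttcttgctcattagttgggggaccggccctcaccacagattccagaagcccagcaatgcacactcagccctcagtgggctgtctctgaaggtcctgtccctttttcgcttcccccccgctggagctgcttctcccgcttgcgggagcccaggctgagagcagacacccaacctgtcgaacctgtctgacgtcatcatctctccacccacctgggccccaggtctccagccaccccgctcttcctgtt

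The CLIC3 sequence held 3 GC boxes and none of the other motifs. The CLIC1 sequence held 2 GC boxes, 1 TATA box match at the far end of the window and 1 AP-1 match near the start, and that of CLIC4 held 2 GC boxes. The RAB25 sequence held no match to any of the 4 motifs, which says only that these letters are not in this window. Of the matched members not shown, RAB11A held 3 GC boxes, RAB11FIP5 6, RAB21 2, RAB5A 1 and RAB4A 2. RAB21, RAB5A and RAB4A also held 1 E-box each. A link between these motifs and the array signal was not tested. Among 35114 RefSeq promoter windows of the same length, 42.6% held a GC box, 10.7% a TATA box, 6.57% an AP-1 site and 6.35% an E-box. The CLIC3 window had 15 CG dinucleotides, the RAB25 window 8, the CLIC1 window 11 and the CLIC4 window 30, and the median over all windows was 11.

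On the arrays as a whole, correlations across the kept probe sets ran from 0.973 to 0.982 over all pairs. The brightest probe set of MYO10 stood at 10.7, 11.39 and 10.64 on the MYOSIN10 shRNA arrays, against 11.57, 11.96 and 11.86 on the scramble arrays, on the log2(signal + 16) scale used throughout, so that MYO10 was at 54.2% of the scramble level (limma adjusted p = 0.0318). Of the 5 kept MYO10 probe sets, this was the only one that passed. The log2 fold change was -0.74 (216222_s_at, limma adjusted p = 0.0514), -0.58 (236718_at, 0.163) and -0.84 (244350_at, 0.126) on 3 of the others. The fifth, 1554026_a_at, had the opposite sign and overlapped between the groups, at 0.31 ± 0.24 (SE, limma adjusted p = 0.647). The call of the brightest probe set ended when MYOSIN10 shRNA array 1 (limma adjusted p = 0.145) or 3 (0.151) or scramble array 1 (0.0759) or 3 (0.163) was left out, over a range of 0.000312 to 0.309 in 19 alternatives. On that probe set MYOSIN10 shRNA array 2 was the highest of its group. In bulk RNA, fewer cells with a message and less message per cell cannot be told apart, here and for every gene below. VIM, CD44, AXL, CAV1 and MSN mark the labelled cell line. Their group means lay between 14.09 (MSN in scramble cells) and 14.85 (VIM in MYOSIN10 shRNA cells). CDH1, an epithelial cadherin that this line lacks, PGR, the leukocyte gene PTPRC and the fibroblast gene COL1A2 did not reach the signal filter. The other markers did, with 4 of 6 luminal and epithelial, 2 of 3 blood cell and 3 of 4 fibroblast markers kept. The luminal gene GATA3 had group means of 10.29 in MYOSIN10 shRNA cells and 10.07 in scramble cells. The summed linear signal of 6 luminal and epithelial markers was 2217 to 2440 on the MYOSIN10 shRNA arrays, against 1829 to 1976 on the scramble arrays. EPCAM, a surface protein of epithelial cells, had the largest log2 fold change among the 4 of these 6 that were kept (0.77, limma adjusted p = 0.177). The untested CDH1 was dim, with linear signals of 14.5, 10.6 and 24.0 on the MYOSIN10 shRNA arrays, against 2.45, 1.11 and 5.06 on the scramble arrays. The summed linear signal of 3 blood cell markers (167 to 333 against 216 to 263) and of 4 fibroblast markers (291 to 420 against 268 to 454) overlapped between the groups. The part of these markers in any result was not tested.

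CLIC3 was the one member whose groups lay far apart. It is read by a single probe set, 219529_at, so no second probe set could be set beside it. Its log2(signal + 16) was 9.85, 9.57 and 9.69 on the MYOSIN10 shRNA arrays 1 to 3, against 8.45, 8.65 and 8.12 on the scramble arrays 1 to 3. The lowest MYOSIN10 shRNA array lay 0.92 above the highest scramble array, a gap wider than the range within either group (0.28 among MYOSIN10 shRNA arrays and 0.53 among scramble arrays). The means were 9.70 ± 0.14 in MYOSIN10 shRNA cells and 8.41 ± 0.27 in scramble cells (SD, n = 3 each), a log2 fold change of 1.30 ± 0.15 (SE), or 2.46-fold. By size of the log2 fold change it ranked 67 among the 33370 kept probe sets, and 35 among the 14174 genes when each is represented by its brightest probe set. Within the MYOSIN10 shRNA group, array 2 had the highest signal on the brightest MYO10 probe set and the lowest CLIC3 signal, and the scramble array with the highest CLIC3 signal, array 2, also had the highest signal of its group on that MYO10 probe set.

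**Figure D1:**
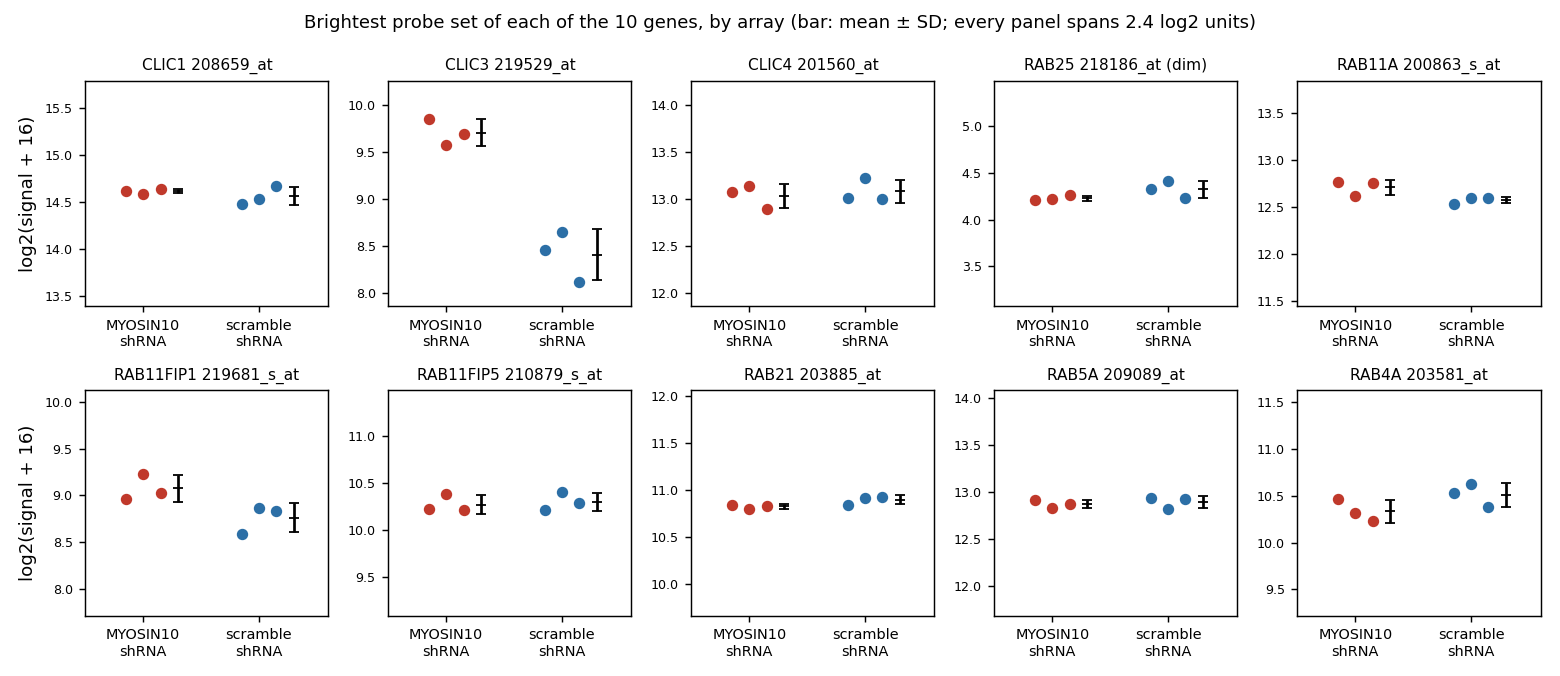
Log2(signal + 16) of the brightest probe set of each of the 10 genes on the 3 MYOSIN10 shRNA arrays (red, left) and the 3 scramble shRNA arrays (blue, right), with the mean ± SD as a bar. Every panel spans the same number of log2 units; the CLIC3 groups are separated (9.57 to 9.85 against 8.12 to 8.65), and RAB25 stays near 4.2 to 4.4, close to the lower limit of the scale.

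CLIC1, a very abundant cytosolic and membrane-associated relative of CLIC3, gave 14.62, 14.59 and 14.63 on the MYOSIN10 shRNA arrays, against 14.48, 14.53 and 14.66 on the scramble arrays. The groups overlapped, and the log2 fold change of 0.054 ± 0.067 (SE, limma adjusted p = 0.798) had a 95% interval of 0.94-fold to 1.15-fold. CLIC4, which moves between cytoplasm, nucleus and plasma membrane and acts in tubule formation, is read by 3 probe sets that differed among themselves. The brightest, 201560_at, gave 13.07, 13.13 and 12.89 on the MYOSIN10 shRNA arrays, against 13.01, 13.22 and 13.00 on the scramble arrays. Its groups overlapped, with a log2 fold change of -0.048 ± 0.089 (SE, limma adjusted p = 0.875). The dimmer 201559_s_at gave 9.33, 9.10 and 9.30 on the MYOSIN10 shRNA arrays, against 9.06, 8.76 and 8.83 on the scramble arrays. Here the groups did not overlap, and the log2 fold change of 0.36 ± 0.13 (SE) had an unadjusted p of 0.0161 and did not pass after adjustment (limma adjusted p = 0.244). The third CLIC4 probe set, 221881_s_at, overlapped between groups at 0.083 ± 0.13 (SE, limma adjusted p = 0.842).

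RAB25, the partner of CLIC3 in integrin rescue, had almost no signal. The linear signal of its 1 probe set was 2.49, 2.62 and 3.14 on the MYOSIN10 shRNA arrays, against 4.02, 5.23 and 2.79 on the scramble arrays, on arrays scaled to a trimmed mean of 500.1. It never rose above the 12.8th percentile of an array, it reached the filter on 0 of 6 arrays and was not tested. The groups overlapped. Its values, at this level, give no order between the groups.

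RAB11A, the GTPase of the recycling compartment, had small positive values on all 3 of its probe sets. The brightest, 200863_s_at, gave 12.76, 12.61 and 12.75 on the MYOSIN10 shRNA arrays, against 12.53, 12.59 and 12.59 on the scramble arrays. The lowest MYOSIN10 shRNA array lay just above the highest scramble array, and the log2 fold change was 0.14 ± 0.074 (SE, limma adjusted p = 0.472), with an interval of 0.98-fold to 1.23-fold. The other 2 overlapped, at 0.040 ± 0.10 (200864_s_at, SE, limma adjusted p = 0.918) and 0.081 ± 0.14 (234998_at, SE, limma adjusted p = 0.869).

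RAB11FIP1, also called Rab coupling protein, links RAB11A and RAB25 to integrin and growth factor receptor cargo. Its brightest probe set, 219681_s_at, gave 8.97, 9.23 and 9.02 on the MYOSIN10 shRNA arrays, against 8.59, 8.87 and 8.83 on the scramble arrays. The groups did not overlap, and the log2 fold change of 0.31 ± 0.13 (SE) had an unadjusted p of 0.0375 and did not pass after adjustment (limma adjusted p = 0.34). The other 2 probe sets of RAB11FIP1 overlapped between the groups, at 0.079 ± 0.20 (225177_at, SE, limma adjusted p = 0.913) and 0.14 ± 0.19 (231830_x_at, SE, limma adjusted p = 0.817). RAB11FIP5, a second RAB11 effector that binds membranes through a C2 domain, gave 10.22, 10.38 and 10.21 on the MYOSIN10 shRNA arrays, against 10.21, 10.40 and 10.28 on the scramble arrays. These ranges overlapped almost completely, with the highest value on array 2 of each group, and the log2 fold change was -0.031 ± 0.10 (SE, limma adjusted p = 0.935).

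RAB21, which binds integrin alpha tails and carries integrins into early endosomes, has 4 probe sets, of which 3 passed the filter, and these did not move together. The brightest, 203885_at, gave 10.84, 10.80 and 10.83 on the MYOSIN10 shRNA arrays, against 10.85, 10.92 and 10.93 on the scramble arrays, a log2 fold change of -0.071 ± 0.085 (SE, limma adjusted p = 0.79). The groups on that probe set did not overlap, but only by the narrow margin between array 1 of each group. Array 1 stood at 10.8449 in MYOSIN10 shRNA cells and 10.8451 in scramble cells. Probe set 239329_at gave 7.90, 8.15 and 8.54 on the MYOSIN10 shRNA arrays, against 8.87, 8.96 and 8.36 on the scramble arrays. Its groups overlapped because MYOSIN10 shRNA array 3 lay above scramble array 3, and its log2 fold change of -0.54 ± 0.20 (SE), farthest from 0 among the members other than CLIC3, did not pass (unadjusted p = 0.0183, limma adjusted p = 0.256). Probe set 226268_at had the opposite sign, 0.076 ± 0.19 (SE, limma adjusted p = 0.914). The untested 241263_at was dim, with linear signals of 5.46, 15.96 and 5.65 on the MYOSIN10 shRNA arrays, against 7.07, 35.5 and 35.4 on the scramble arrays, and reached the filter on 2 arrays.

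RAB5A, the GTPase of early endosome fusion, gave 12.91, 12.83 and 12.87 on its brightest probe set (209089_at) on the MYOSIN10 shRNA arrays, against 12.94, 12.82 and 12.92 on the scramble arrays. The groups overlapped, with a log2 fold change of -0.019 ± 0.071 (SE, limma adjusted p = 0.945) and an interval of 0.89-fold to 1.10-fold. The second, 206113_s_at, gave 10.28, 10.48 and 10.06 on the MYOSIN10 shRNA arrays, against 10.22, 10.40 and 9.99 on the scramble arrays (log2 fold change 0.072 ± 0.13 SE, limma adjusted p = 0.875). In both groups array 2 was highest and array 3 lowest on that probe set, and the spread within a group was wider than the difference between groups. The third RAB5A probe set, 240990_at, reached the filter on 2 arrays and was not tested.

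RAB4A was lower on average on each of its 3 probe sets, and none passed. Probe set 203581_at gave 10.46, 10.31 and 10.23 on the MYOSIN10 shRNA arrays, against 10.52, 10.63 and 10.38 on the scramble arrays, with overlap between the groups and a log2 fold change of -0.18 ± 0.11 (SE, limma adjusted p = 0.515). Probe set 203582_s_at gave 10.28, 10.09 and 10.28 on the MYOSIN10 shRNA arrays, against 10.61, 10.33 and 10.34 on the scramble arrays. These groups did not overlap, and the log2 fold change was -0.21 ± 0.11 (SE, limma adjusted p = 0.455). The dimmer 206272_at stood at -0.24 ± 0.13 (SE, limma adjusted p = 0.473). The accession that the annotation lists for 206272_at is not among the current RefSeq transcripts of RAB4A, so that probe set may not read this gene. The 3 probe sets share their RNA samples and are not replicates of one another.

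Across the members, 20 of the 23 probe sets passed the signal filter, from 9 of the 10 genes. All 20 reached the filter level on each of the 6 arrays, so none passed through 1 group alone. CLIC3 was chosen on this contrast and is left out of the counts that follow. Of the other 19 probe sets, 0 were called at a limma adjusted p under 0.05, against 1.06% of all 33370 kept probe sets, and their adjusted p-values ran from 0.244 to 0.945. At an unadjusted p under 0.05 there were 3 of the 19, against 13.2% of all kept probe sets. Without a trend of variance on signal in the fit, 0 of the 19 and 0 of all kept probe sets passed (limma), with 1 and 3665 at an unadjusted p under 0.05. The groups did not overlap on 5 of the 19, against 18.1% of all kept probe sets. These were 3 higher and 2 lower, beside 9.18% and 8.94% of all kept probe sets. The median log2 fold change was 0.054 over the 19 and -0.0020 over all kept probe sets, and the median absolute log2 fold change was 0.081 over the 19 and 0.17 over all kept probe sets. Of the 19, 16 had a 95% interval that lay wholly within a 1.5-fold change in either direction. The 3 whose interval reached past it were CLIC4 201559_s_at, RAB11FIP1 219681_s_at and RAB21 239329_at. All 19 intervals also lay within the size of the CLIC3 log2 fold change. As CLIC3 was selected for that size, this is a description and sets no member apart. Of the 6 genes with several kept probe sets, 3 (CLIC4, RAB21 and RAB5A) had probe sets of both signs, while RAB11A and RAB11FIP1 were positive and RAB4A negative on each.

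**Figure D2:**
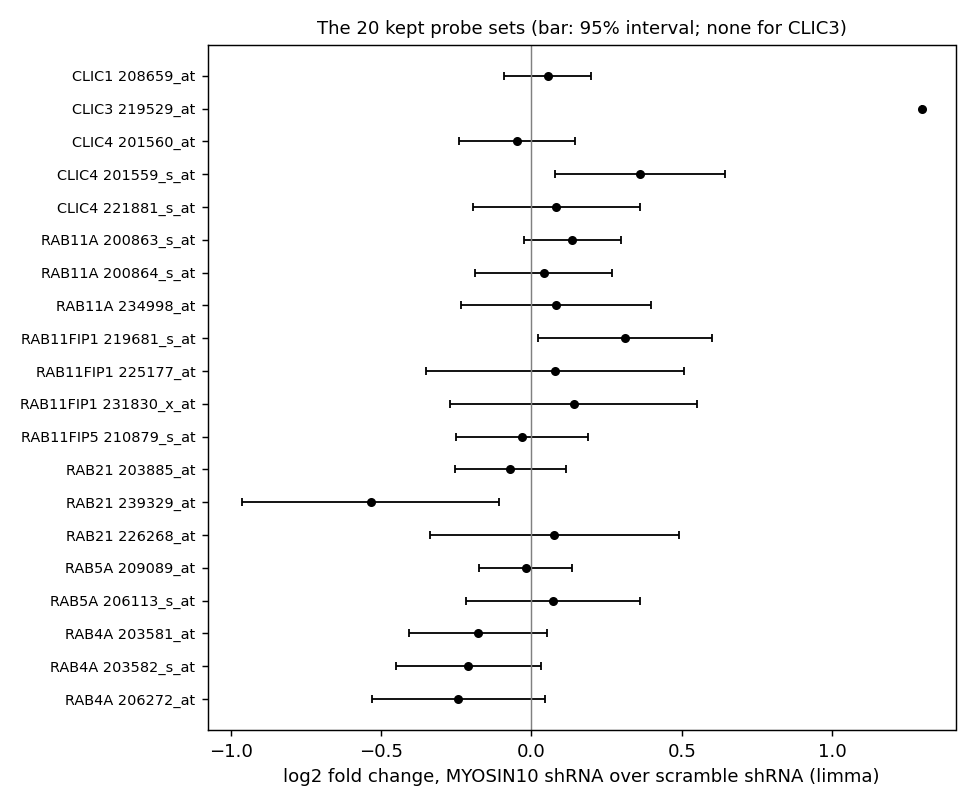
Log2 fold change (MYOSIN10 shRNA over scramble shRNA) of the 20 kept probe sets; bars are limma's 95% intervals of the 19 other than CLIC3, which is shown without one because it was chosen on this contrast, and the vertical line marks no difference. CLIC3 stands at 1.30, and the other 19 lie between -0.54 and 0.36.

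The other genes of the route were read from lists drawn from general knowledge, with each gene represented by its brightest kept probe set. Of 100 listed genes 93 were measured, and 0 passed (limma adjusted p under 0.05), while 13 had an unadjusted p under 0.05. Over all 14174 genes, 1.39% passed and 15.1% had an unadjusted p under 0.05. The signs were mixed, 48 positive and 45 negative, with a median of 0.0022 against 0.0093 over all genes.

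Among the 3 other CLIC genes, 0 passed and 1 had an unadjusted p under 0.05. CLIC6, a long relative of CLIC3 with an extended N-terminal region, gave 10.47, 9.90 and 10.02 on the MYOSIN10 shRNA arrays, against 9.33, 9.65 and 8.70 on the scramble arrays. The groups did not overlap, although MYOSIN10 shRNA array 2 and scramble array 2 lay near each other, and the log2 fold change was 0.90 ± 0.21 (SE, limma adjusted p = 0.0695). It passed in 4 of 20 alternatives, the one without scramble array 2 among them, over a range of limma adjusted p from 0.00477 to 0.357. The dimmer second probe set of CLIC6 stood at 0.28 ± 0.19 (SE, limma adjusted p = 0.593). CLIC5, which is linked to the ezrin-rich actin of microvilli and hair bundles, was dim and stood at -0.54 ± 0.31 (SE, limma adjusted p = 0.496).

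Of the other endosomal Rab and Arf GTPases, 0 of 17 passed, 1 had an unadjusted p under 0.05, and the median log2 fold change was -0.040. RAB15, an endosomal GTPase of neural cells, stood at -0.48 ± 0.20 (SE, limma adjusted p = 0.33, with a pass in 2 of 20 alternatives, the one without scramble array 2 among them, in a range of 0.0308 to 0.649), and RAB4B, the close relative of RAB4A, at -0.80 ± 0.38 (SE, limma adjusted p = 0.402) from a dim probe set. RAB14, which passes cargo between the Golgi and endosomes, stood at 0.078 ± 0.10 (SE, limma adjusted p = 0.814), and is named for its place beside RAB11A and not by its value.

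Effectors of RAB11, RAB4 and RAB5 and proteins of recycling tubules had 0 calls among 24 measured, 2 with an unadjusted p under 0.05, and a median of 0.022. MYO5C, a myosin V motor of epithelial cells that carries recycling vesicles, gave 8.33, 8.40 and 8.11 on the MYOSIN10 shRNA arrays, against 7.18, 8.01 and 7.03 on the scramble arrays. The groups did not overlap, scramble array 2 was the closest to the MYOSIN10 shRNA arrays, and the log2 fold change was 0.87 ± 0.23 (SE, limma adjusted p = 0.107). It passed in the same 4 of 20 alternatives as CLIC6, over a range of 0.00355 to 0.370. RAB11FIP3, a RAB11 effector of dividing cells, stood at 0.54 ± 0.15 (SE, limma adjusted p = 0.124), and its 2 other probe sets at 0.079 and 0.51.

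Retromer, retriever and sorting nexin genes had 0 calls among 18 measured, 5 with an unadjusted p under 0.05, and a median of 0.022. SNX17, a sorting nexin that binds integrin beta tails and keeps integrins from lysosomes, gave 11.52, 11.47 and 11.48 on the MYOSIN10 shRNA arrays, against 10.89, 11.25 and 10.94 on the scramble arrays. All 3 MYOSIN10 shRNA arrays lay above all 3 scramble arrays, and the log2 fold change of 0.46 ± 0.10 (SE) missed the threshold (limma adjusted p = 0.0543). It passed in 8 of 19 alternatives, the one without scramble array 2 among them, over a range of 0.00259 to 0.322. SNX6, a retromer-associated nexin, stood at -0.29 ± 0.076 (SE, limma adjusted p = 0.102). That probe set passed in 3 of 19 alternatives (0.0438 to 0.41 over all), and the second SNX6 probe set stood at -0.025.

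Exocyst and SNARE genes, which tether and fuse the returning vesicles, had 0 calls among 17 measured, 2 with an unadjusted p under 0.05, and a median of -0.051. VAMP8, a SNARE of late endosomes and regulated exocytosis, gave 12.83, 12.81 and 12.71 on the MYOSIN10 shRNA arrays, against 12.09, 12.58 and 12.04 on the scramble arrays. The groups did not overlap, with scramble array 2 again nearest to the MYOSIN10 shRNA arrays, and the log2 fold change was 0.55 ± 0.12 (SE, limma adjusted p = 0.0563). It passed in 6 of 20 alternatives, the one without scramble array 2 among them, over a range of 0.000439 to 0.354. VAMP3, the SNARE of recycling endosomes, was at -0.27 ± 0.091 (SE, limma adjusted p = 0.203, and 0.0497 without scramble array 2, in a range of 0.0497 to 0.492 over 20 alternatives), and its 2 other probe sets stood at -0.21 and -0.26.

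The recycled cargo had 0 calls among 14 measured, 2 with an unadjusted p under 0.05, and a median of -0.0068. MET, the hepatocyte growth factor receptor, stood at -0.31 ± 0.081 (SE, limma adjusted p = 0.0981) without overlap on its brightest probe set. Of its 3 other probe sets, 213816_s_at stood at -0.49 without overlap (limma adjusted p = 0.165), while 211599_x_at and 213807_x_at overlapped at -0.019 and 0.083. The brightest passed in 4 of 20 alternatives, including that which dropped MYOSIN10 shRNA array 2, over a range of 0.00991 to 0.411. The integrin subunit ITGA2 stood at 0.21 ± 0.082 (SE, limma adjusted p = 0.298). The cargo of the CLIC3 route itself, named for that role, did not pass. The fibronectin receptor subunit ITGA5 gave 9.12, 9.03 and 9.47 on the MYOSIN10 shRNA arrays, against 8.94, 9.24 and 9.34 on the scramble arrays, with overlap and a log2 fold change of 0.027 ± 0.15 (SE, limma adjusted p = 0.963). Its partner ITGB1 stood at -0.030 ± 0.065 (SE, limma adjusted p = 0.897). MMP14 gave 11.26, 11.08 and 11.48 on the MYOSIN10 shRNA arrays, against 11.26, 11.36 and 11.96 on the scramble arrays, also with overlap (log2 fold change -0.25 ± 0.16 SE, limma adjusted p = 0.549). The 3 other kept probe sets of MMP14 were negative as well, at -0.30, -0.21 and -0.11, with limma adjusted p of 0.232, 0.567 and 0.83.

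**Figure D3:**
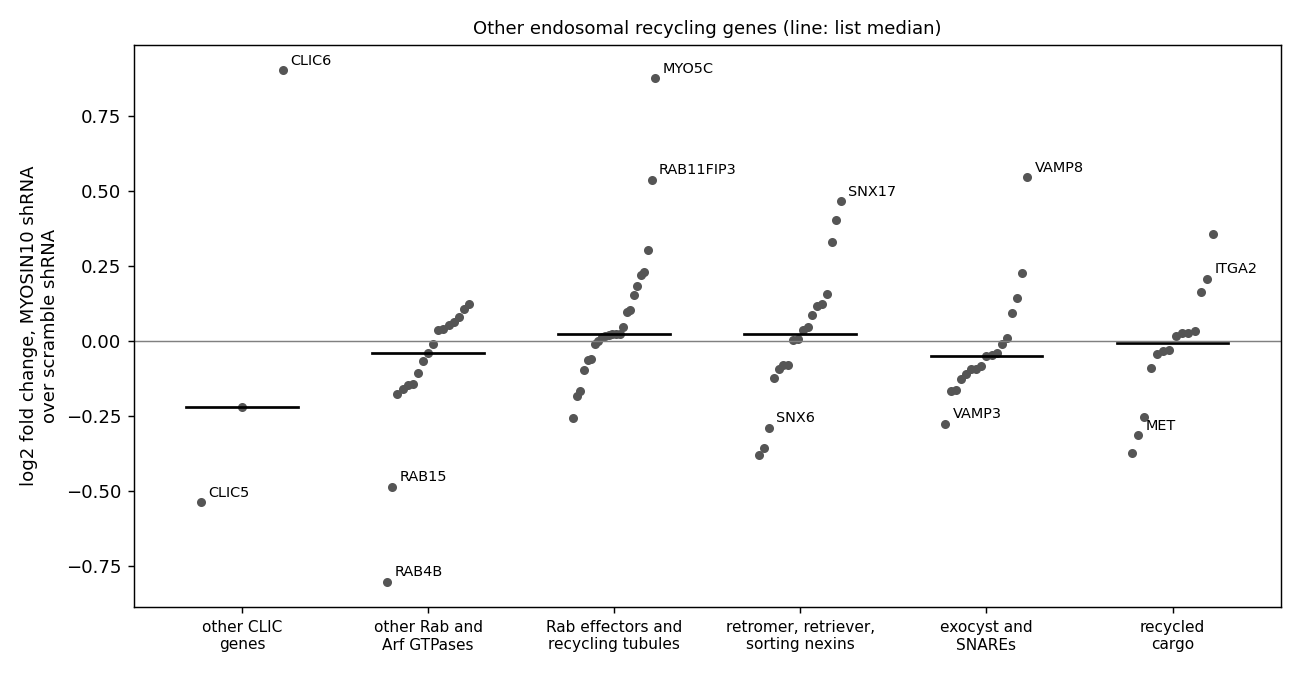
Log2 fold change (MYOSIN10 shRNA over scramble shRNA) of the 93 measured genes of 6 lists around endosomal recycling, 1 point per gene in order of value, with the list median as a line and the genes named by the rule labelled. No gene passed at a limma adjusted p under 0.05; list medians lie between -0.22 and 0.022.

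The genes whose pattern over the 6 arrays was most like that of CLIC3 were sought by the root mean square difference in log2(signal + 16), after each probe set was centred on its own 6-array mean. The 5 closest were UGT8 (0.13), which makes galactosylceramide, TSGA10IP (0.14) on a dim probe set, the prohibitin PHB2 (0.14), the steroid reductase SRD5A1 (0.15) and the ESCRT-III subunit CHMP4B (0.15). None of them is on the lists above. Among the members the closest was CLIC4 201559_s_at at 0.51, with a rank of 1405 among the genes. This likeness is over 6 arrays that fall into 2 groups, and the measure takes in the difference between those groups.

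**Figure D4:**
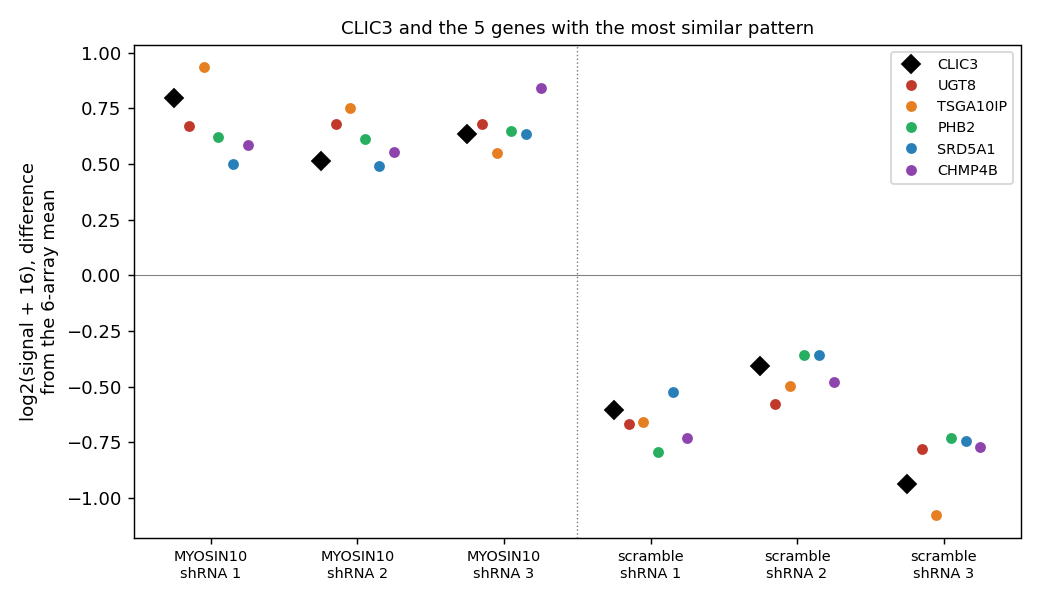
Log2(signal + 16) of CLIC3 (black diamonds) and of the 5 genes with the most similar pattern (coloured circles) on each of the 6 arrays, each shown as its difference from its own 6-array mean. All 6 genes lie above their mean on the 3 MYOSIN10 shRNA arrays and below it on the 3 scramble arrays, and among the scramble arrays each is highest on array 2.

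CLIC3 lies on chromosome 9, and its neighbours in the order of protein-coding RefSeq genes were read as well, 3 on each side. None of the 6 passed. PAXX, a DNA end-joining factor, stood at 0.41 ± 0.16 (SE, limma adjusted p = 0.305) and ABCA2, a lipid transporter of endosomes and lysosomes, at -0.19 ± 0.20 (SE, limma adjusted p = 0.757). NPDC1 stood at 0.42 ± 0.22 (SE, limma adjusted p = 0.435), and the dim PTGDS, LCNL1 and FUT7 at 0.073, -0.21 and -0.41, with limma adjusted p of 0.952, 0.897 and 0.687.

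Under 20 other ways of processing the values or choosing the arrays, the CLIC3 log2 fold change ran from 1.15 to 1.49, or 2.22-fold to 2.80-fold. With 1 array left out it ran from 2.22-fold, without scramble array 3, to 2.67-fold, without scramble array 2. These settings reuse the arrays on which CLIC3 was selected, so the ranges describe the processing and are no test of the difference. Settings that changed only the filter, variance model, replicate block or choice of probe sets cannot move the CLIC3 log2 fold change. It stayed at 1.30 under each of those.

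**Figure D5:**
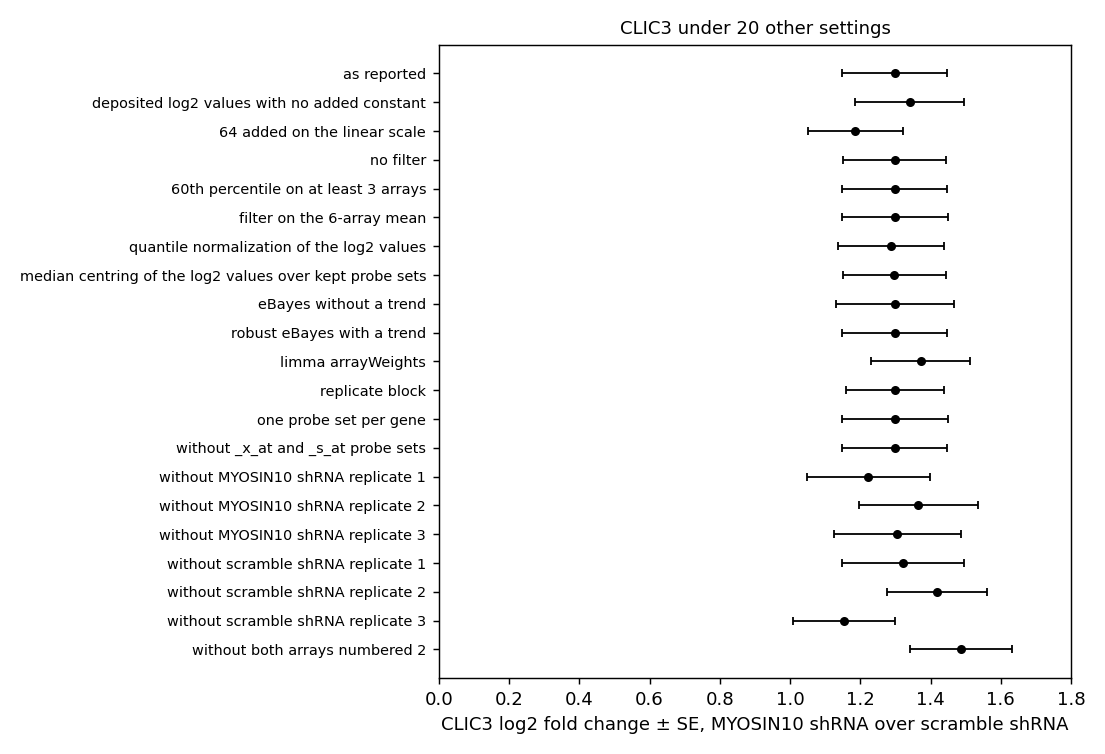
CLIC3 log2 fold change (MYOSIN10 shRNA over scramble shRNA, bars ± SE from limma) as reported and under 20 other settings. The values lie between 1.15, without scramble array 3, and 1.49, without both arrays numbered 2. Settings that changed only the filter, variance model, replicate block or choice of probe sets cannot move the value. CLIC3 was selected on these same arrays, so this range is no test of the difference.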

How the data were processed

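Total RNA of each sample was labelled with a 3' in vitro transcription kit and read on 1 Affymetrix array, per the labels. The deposited values are log2 signals made by the authors with MAS5, per the submitters' processing notes; neither its version nor its floor is given in the sources used here. The log2 scale was read from the values: the linear mean, trimmed by 2% at each end, was 500.1 on every array, and 0.754% to 1.01% of values were exactly 0. Arrays carry no read depth, and 3 arrays per group limit the precision. Each value was made linear, raised by 16 and logged again (base 2), which understates changes of low signals. Probe sets at or above the 40th percentile of their array on at least 3 of 6 arrays were kept (33370). Symbols came from the platform annotation, updated by Entrez number through RefSeq (GRCh38.p14) for 41043 of 41097 single-symbol probe sets. The contrast was fitted in R 4.3.3 with limma 3.58.1 (lmFit, eBayes with a variance trend, two-sided), with Benjamini-Hochberg adjustment over all kept probe sets. Calls are at an adjusted p under 0.05, and folds are MYOSIN10 shRNA over scramble shRNA. Named genes are all members, MYO10, up to 4 called genes of each other list or, with no call, the 2 with the smallest p, and the 5 patterns closest to CLIC3; genes named for their role or position are marked. Members and lists were chosen with earlier results of these data known. The steps were tested on simulated data. Alternatives changed the pseudocount, filter, scaling, variance model, array weights, block, probe sets and arrays. Figures used Python 3.11.15 and matplotlib 3.10.9.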

Additional observations from a re-analysis of the deposited data

How the results depend on the processing

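When eBayes was run without a variance trend, 0 probe sets in all were called in either direction. CLIC3 was selected on this contrast, so its calls are not counted here. Of the 19 other kept member probe sets, 0 were called in any of the 20 alternatives. Of the 20 kept member probe sets, 11 had the same sign in every alternative that included them, RAB11A 200863_s_at and the 3 of RAB4A among them. The 11 include CLIC3, whose sign is no support because it was selected on this contrast. The other 9 turned sign in at least 1, all with a log2 fold change no farther from 0 than 0.14. Alternatives that changed only the filter, variance model, replicate block or choice of probe sets cannot turn a sign. Counts over all kept probe sets, 231 higher and 122 lower, were 125 and 48 with no filter, 566 and 383 with array weights, 133 higher without _x_at and _s_at probe sets, 65 lower with 1 probe set per gene, and 895 and 760 without both arrays numbered 2. Leaving out 1 array gave 49 to 802 higher and 10 to 664 lower, with the most calls without scramble array 2. Listed genes, 0 called in the main setting, had 2 higher with 64 added (VAMP8 and SNX17) or with the filter at the 60th percentile (the same 2 genes), 1 higher with robust eBayes or with 1 probe set per gene (SNX17 in both), 5 higher and 2 lower with array weights (CLIC6, MYO5C, VAMP8, SNX17 and COMMD1 higher, MET and SNX6 lower), and 5 higher and 5 lower without both arrays numbered 2 (the same 7 genes, with SNX27, WASHC5 and RAB15 also lower). Leaving out 1 array gave 0 to 5 higher and 0 to 3 lower, the largest counts coming without scramble array 2. The labels do not say whether equal replicate numbers mark paired samples, and the values did not settle it. Deviations of same-numbered arrays correlated at 0.033, 0.12 and 0.013, and 2 of 6 arrays correlated best with their own number. Calls in either direction rose from 353 without the replicate block to 891 with it. With the replicate block, 520 probe sets were higher and 371 lower. Listed genes then gave 4 higher (CLIC6, MYO5C, VAMP8 and SNX17) and 2 lower (MET and SNX6). The CLIC3 log2 fold change stayed at 1.30, which such a block cannot move in this balanced design. The causes were not tested. MYO10 passed in 12 of 19 alternatives, with log2 fold changes from -1.12 to -0.75 and limma adjusted p from 0.000312 to 0.309. CLIC3 rests on 1 probe set, and the signal of RAB25 was too low to compare.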
